A study of Rattus norvegicus with 12 samples.

Results

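The genes described here encode the presynaptic vesicle release machinery: 48 genes taken from a list of symbols, by name and not by a threshold on any value. Of these, 47 had an entry in the deposited 12-library table of 17339 gene symbols, and Cadps2 is not analysed here. The entry with the highest mean was used for each symbol. All 47 passed the filter on low values, a minimum of 10 read equivalents in 3 or more libraries, as did 12073 genes in all. Levels are given in read equivalents: base coverage divided by a read length of 42 nt inferred from the values, after the authors' size factor.

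RNA came from primary cortical neuron cultures of Wistar rats at embryonic day 18 (E18), as total RNA depleted of ribosomal RNA. There were 4 groups of 3 libraries, which the submitters call biological triplicates. They were wild-type cultures left untreated, wild-type cultures given tetrodotoxin (TTX), Ehmt1 knockdown cultures left untreated and Ehmt1 knockdown cultures given TTX. TTX blocks voltage-gated sodium channels and so stops action potentials, and Ehmt1 encodes a histone H3 lysine 9 methyltransferase. Ehmt1 was knocked down by shRNA, a short hairpin that directs cleavage of its transcript. No control hairpin is named for the wild-type cultures, so that an effect of the hairpin or of its delivery cannot be told apart from an effect of less Ehmt1. The labels used here state neither the delivery of the hairpin, nor the dose or duration of TTX, nor how many animals a culture was made from. Both kinds of culture are called genotypes below for short.

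Neurons release transmitter when a vesicle fuses with the presynaptic membrane. The vesicle SNARE synaptobrevin (Vamp) zips up with the membrane SNAREs syntaxin (Stx1a) and SNAP-25 (Snap25). Synaptotagmins sense calcium, complexins clamp and promote fusion, Munc13 proteins (Unc13) and CAPS (Cadps) prime vesicles, and the scaffold proteins RIM, Bassoon, Piccolo, ELKS and liprin-alpha organise the active zone where this occurs. Rab3 proteins and rabphilin tether vesicles, synapsins hold the reserve pool, and NSF with its SNAP cofactors takes the used SNARE complexes apart before dynamin, amphiphysin and endophilin recover the membrane. Synapses of cultured cortical neurons are known to adjust their strength when firing is silenced for long periods.

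Promoter sequence was available for 36 of the 47 genes, as 250 bases before and 50 bases after the start of each RefSeq gene on the rat assembly GRCr8, a later build than the one the authors used. Rab3b is shown because it had the smallest adjusted p for TTX among the genes with a promoter entry, and Sh3gl2, Vamp1 and Syn1 because they were the 3 genes with a complete cyclic AMP response element (CRE), the letters TGACGTCA. CRE is the binding motif of CREB, a transcription factor of neuronal activity. Capitals mark every match, on either strand, to CRE, its core TGACG, the GC box GGGCGG, the Egr motif GCGNGGGCG or the left arm TCAGCACC of the RE1 motif. A complete CRE holds the core on both strands, and GC box and Egr matches can overlap.
Rab3b (chr5:128858841-128859140, plus strand): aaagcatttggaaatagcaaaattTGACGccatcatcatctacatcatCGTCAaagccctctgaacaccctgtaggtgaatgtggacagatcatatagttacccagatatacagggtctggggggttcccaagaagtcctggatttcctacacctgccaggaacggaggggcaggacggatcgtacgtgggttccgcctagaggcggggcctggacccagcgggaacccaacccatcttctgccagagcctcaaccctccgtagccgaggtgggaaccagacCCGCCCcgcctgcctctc
Sh3gl2 (chr5:104699020-104699319, plus strand): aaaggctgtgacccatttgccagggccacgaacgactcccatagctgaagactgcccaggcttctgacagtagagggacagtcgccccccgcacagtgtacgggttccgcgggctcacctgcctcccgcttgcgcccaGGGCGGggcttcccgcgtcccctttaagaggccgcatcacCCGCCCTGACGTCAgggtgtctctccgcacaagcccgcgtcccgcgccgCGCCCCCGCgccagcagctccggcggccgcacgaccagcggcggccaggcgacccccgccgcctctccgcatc
Vamp1 (chr4:159698644-159698943, plus strand): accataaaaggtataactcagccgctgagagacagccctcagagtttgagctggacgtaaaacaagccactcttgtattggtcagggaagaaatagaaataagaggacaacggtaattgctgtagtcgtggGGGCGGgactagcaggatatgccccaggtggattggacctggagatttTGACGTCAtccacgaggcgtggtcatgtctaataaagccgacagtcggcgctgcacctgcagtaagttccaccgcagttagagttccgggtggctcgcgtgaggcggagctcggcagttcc
Syn1 (chrX:3725495-3725794, plus strand): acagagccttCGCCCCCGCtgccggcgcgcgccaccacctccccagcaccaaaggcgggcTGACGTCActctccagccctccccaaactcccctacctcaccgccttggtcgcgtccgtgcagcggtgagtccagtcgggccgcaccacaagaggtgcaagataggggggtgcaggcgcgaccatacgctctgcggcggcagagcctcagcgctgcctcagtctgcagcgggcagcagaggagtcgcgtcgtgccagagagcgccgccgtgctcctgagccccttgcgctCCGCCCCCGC
The complete CRE began at position -66 relative to the start in Sh3gl2, at -71 in Vamp1 and at -190 in Syn1. Rab3b held no complete CRE and a core on each strand, at -226 and -202.

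Over all 36 promoters, 3 (8.33%) held the complete CRE, against 1.91% of the 27457 RefSeq promoters of the same length. The core was in 11 (30.6%) against 22.0%, the GC box in 26 (72.2%) against 34.9%, and the Egr motif in 9 (25%) against 5.29%. The left arm of RE1, the motif of the repressor REST, was in the promoters of Syt4, Unc13a and Rab3c (8.33% against 1.58%). These promoters were also richer in G and C, with a median of 64% against 52.3% for all promoters, and matches to motifs made of G and C move with that content. A match says only that these letters occur in the window.

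Before size factors, each library summed to between 15108848 and 24787516 read equivalents. Ehmt1 (NM_001108572), the target of the hairpin, was at 1772, 1586 and 1599 read equivalents in wild-type untreated libraries 1, 2 and 3, at 2039, 1739 and 1839 with TTX, at 1044, 1535 and 1037 in the knockdown and at 1187, 1519 and 1162 in the knockdown with TTX. Every knockdown library lay below every wild-type library, but by a narrow margin in knockdown libraries 2. These were at 1535 untreated and 1519 with TTX, close to the lowest wild-type library at 1586. Over both treatments the log2 difference was -0.51 (SE 0.12, limma adjusted p = 0.127). Libraries of the same genotype and number deviated together between TTX and untreated, and the 3 pairs of each genotype, numbered as the libraries, were used as such. That a pair shares a culture is inferred from the values, and a shared lane or batch cannot be told apart from it.

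Transcripts of most release genes were lower with TTX. Over both genotypes 43 of 47 genes had a negative mean difference, with a median log2 difference of -0.34, where the median over all 12073 genes was 0.02 and 44.5% of them were negative. With each pair as a term in the limma fit, 27 of 47 genes fell and 0 rose at an adjusted p under 0.05, against 7.54% of all genes called lower and 13% called in either direction. The falls called were modest, from 1.19-fold for Vamp1 to 1.98-fold for Sv2c on the log2(read equivalents + 1) scale. With the 4 groups as the only term, which leaves the differences between pairs in the error, limma called 0 of 47 (background 0.199%). An unadjusted p under 0.05 was found for 22 of the 47 and for 1192 of all 12073 genes. Each difference is the same in both fits, and the error and the p differ. With the pair as a random effect 27 fell over both genotypes (background 9.43%), 17 in wild-type (4.2%) and 5 in the knockdown (2.18%).

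The pairs themselves show where the direction held. In 29 of 47 genes all 6 pairs were lower with TTX, as in 11.7% of all genes, and only Syt11 was higher in all 6, as in 11.8% of all genes. The number of genes lower was 32, 44 and 40 of 47 in wild-type pairs 1, 2 and 3 and 41, 43 and 44 of 47 in knockdown pairs 1, 2 and 3. Pair medians of the log2 difference were -0.30, -0.40 and -0.42 in wild-type and -0.32, -0.17 and -0.41 in knockdown. Wild-type pair 1 stood apart with 15 genes higher, among them Syt4 by 1.06, Syn1 by 0.55, the active zone scaffolds Pclo by 0.53 and Bsn by 0.44, and Rims1 by 0.36. The 27 calls needed most of the pairs: 8 were left without wild-type pair 3, 3 without knockdown pair 1, 8 without knockdown pair 3 and 18 without knockdown pair 2, against 28 without wild-type pair 1 and 21 without wild-type pair 2. Ppfia2, Rab3b and Sv2c passed with each pair left out in turn.

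**Figure D1:**
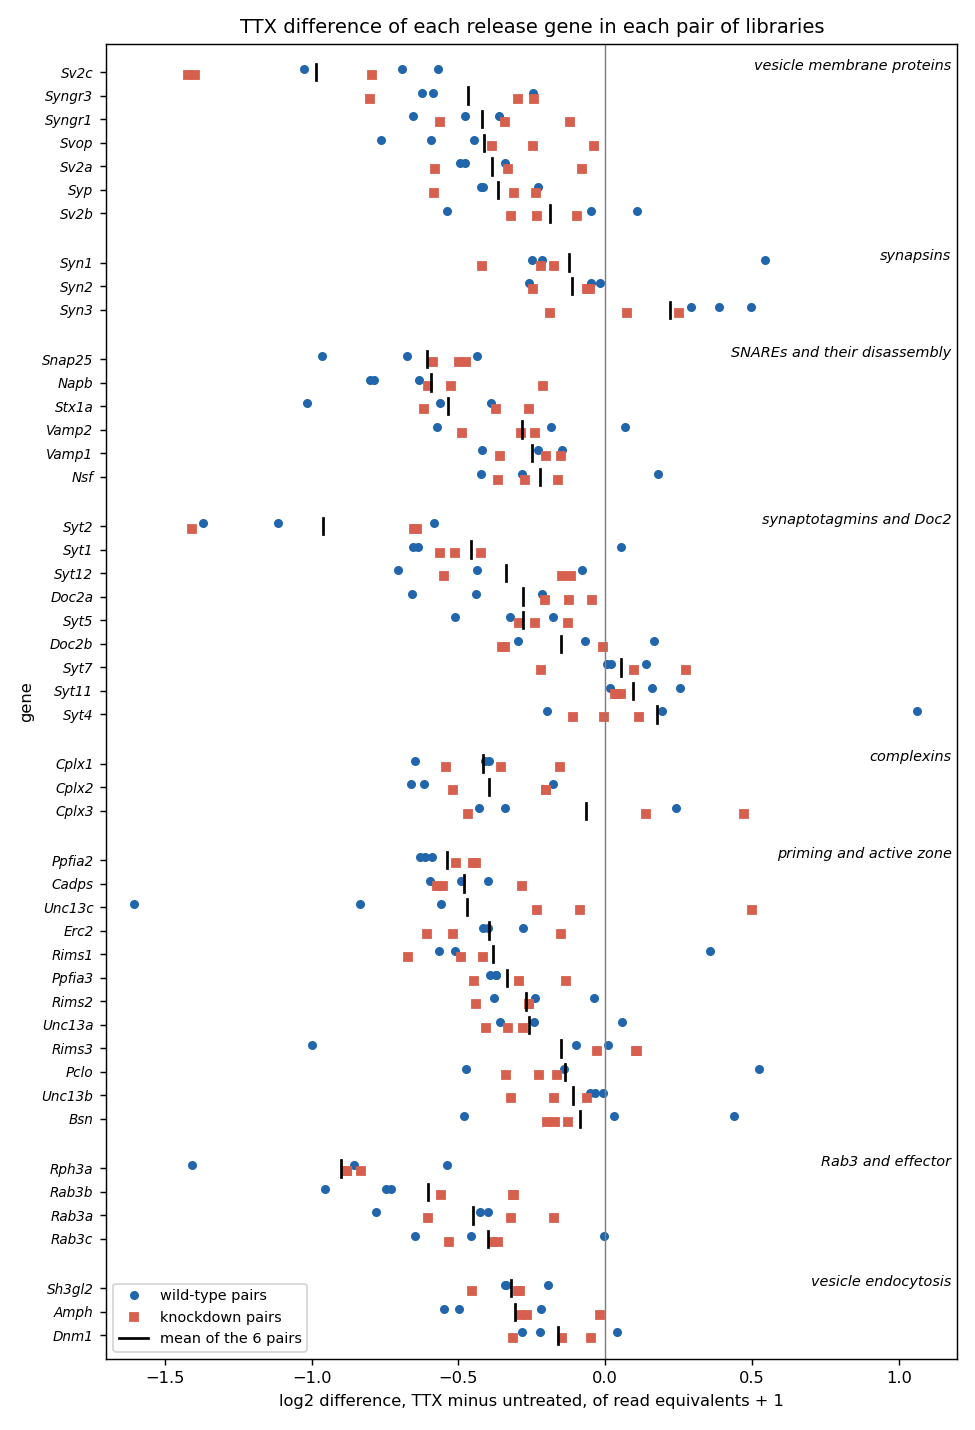
TTX difference of each release gene in each pair of libraries, grouped by role. The horizontal axis is the log2 difference, TTX minus untreated, of read equivalents + 1, blue circles are the 3 wild-type pairs, red squares the 3 knockdown pairs and black bars the mean of the 6 pairs. Most points lie left of 0, 29 of the 47 genes have all 6 points there, and Sv2c, Syt2 and Rph3a lie farthest to the left.

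In the descriptions below, levels are read equivalents in the order of libraries 1, 2 and 3, and levels are compared only within a gene because transcript lengths are not used here. Test values for TTX are over both genotypes from limma with each pair as a term, unless the groups alone are named. In that fit 7.54% of all genes were called lower, the share to set beside the count of each role group. For the 27 genes called, adjusted p with the groups alone ran from 0.13 for Rph3a to 0.707 for Sh3gl2.

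Vesicle membrane proteins all had negative differences, with 6 of 7 called lower and a median of -0.41. Sv2c (NM_031593), a glycoprotein of the SV2 family that is best known from basal ganglia, was at 119.8, 78.3 and 292 in wild-type untreated libraries and at 73.8, 52.4 and 143 with TTX. Its knockdown levels were 137, 121 and 105 untreated and 50.3, 69.4 and 39.3 with TTX. The knockdown groups did not overlap, while in wild-type the third pair was high on both sides. Sv2c fell by 0.98 in log2 units (SE 0.11, adjusted p = 0.00709). Its relative Sv2a (NM_057210), the binding site of the antiepileptic levetiracetam, was at 4281, 4918 and 4537 in wild-type and 3376, 3487 and 3255 with TTX. In the knockdown Sv2a was at 6466, 4396 and 4684, and at 5143, 4161 and 3132 with TTX. Wild-type groups did not overlap and knockdown groups did. The difference in Sv2a was -0.38 (SE 0.07, adjusted p = 0.0244). Sv2b was lower in 5 of 6 pairs, at -0.19 (SE 0.09, adjusted p = 0.223), and did not pass.

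Svop (NM_134404), an SV2-related transporter-like protein of the vesicle, was at 2316, 1809 and 1842 in wild-type and 1364, 1328 and 1222 with TTX. Knockdown libraries held 2324, 1808 and 1706 untreated and 1958, 1762 and 1307 with TTX. The wild-type groups were well apart, and the knockdown groups overlapped. Svop fell by 0.41 (SE 0.07, adjusted p = 0.017). Synaptophysin (Syp, NM_012664), the classic marker of synaptic vesicles, was at 3069, 3504 and 3426 in wild-type and 2297, 2989 and 2555 with TTX. For Syp in the knockdown the levels were 5432, 3585 and 4059, and 4375, 3043 and 2711 with TTX. Knockdown library 1 was the highest on each side. Syp fell by 0.37 (SE 0.06, adjusted p = 0.0192).

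Synaptogyrins are tetraspan vesicle proteins related to synaptophysin. Syngr1 (NM_019166) was at 1190.3, 1542 and 957 in wild-type and 756, 1200.2 and 688 with TTX, and at 1891, 1266 and 1553 in the knockdown and 1492, 1166 and 1051 with TTX. Both genotypes overlapped between treatments, yet all 6 pairs were lower. The Syngr1 difference was -0.42 (SE 0.07, adjusted p = 0.0199). Syngr3 (NM_001106985) was at 1771, 1423 and 1522 in wild-type and 1178, 1200.2 and 987 with TTX, and at 1981, 1546 and 1802 in the knockdown and 1613, 1307 and 1034 with TTX. Here the wild-type groups did not overlap. Syngr3 fell by 0.47 (SE 0.10, adjusted p = 0.0304).

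Synapsins, which tie vesicles to actin in the reserve pool, had 0 of 3 genes called. Syn1 (NM_019133) was at 1802, 2566 and 3537 in wild-type and 2632, 2157 and 3046 with TTX. In the knockdown it was at 4469, 3871 and 2569, and at 3963, 3324 and 1920.2 with TTX. It was lower in 5 of 6 pairs and higher in wild-type pair 1. The Syn1 difference was -0.12 (SE 0.12, adjusted p = 0.515). Leaving out each pair in turn gave -0.25 to -0.05. The -0.25 (adjusted p = 0.0468) came from leaving out wild-type pair 1, the pair that went the other way. Over the alternatives run, the limma adjusted p of Syn1 lay between 0.0468 and 0.909. Syn2 was lower in 6 of 6 pairs by a small amount, -0.11 (SE 0.06, adjusted p = 0.232). Syn3 was higher in 5 of 6 pairs, at 0.22 (SE 0.07, adjusted p = 0.09).

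SNAREs and their disassembly factors all had negative differences, 4 of 6 called. Snap25 (NM_001270575), the membrane SNARE cut by several botulinum toxins, was at 5162, 7328 and 7286 in wild-type and 3814, 4588 and 3730.3 with TTX. Knockdown libraries were at 11919, 6166 and 5846, and at 7939, 4438 and 4138 with TTX. The wild-type groups did not overlap, and knockdown library 1 exceeded all others of its treatment. Snap25 fell by 0.61 (SE 0.07, adjusted p = 0.0095). Syntaxin 1A (Stx1a, NM_053788), its partner in the membrane, was at 4125, 3314 and 2426 in wild-type and 2038, 2529 and 1642 with TTX, and at 4608, 3998 and 3526 in the knockdown and 3564, 3339.7 and 2296 with TTX. Stx1a groups overlapped in both genotypes, with all 6 pairs lower. The Stx1a difference was -0.54 (SE 0.10, adjusted p = 0.0201).

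Napb (NM_001191966), beta-SNAP, recruits the ATPase NSF to used SNARE complexes. It was at 1812, 1969.8 and 1779.7 in wild-type and 1038, 1269.7 and 1032 with TTX, and at 2677, 1772 and 1810.4 in the knockdown and 1858, 1531 and 1192 with TTX. Wild-type levels with TTX were all well below the untreated ones, and knockdown levels overlapped. Napb fell by 0.59 (SE 0.07, adjusted p = 0.00802). The vesicle SNARE Vamp1 also passed at -0.25 (SE 0.06, adjusted p = 0.041), whereas the more widely used Vamp2 at -0.28 (SE 0.09, adjusted p = 0.0896) and Nsf at -0.22 (SE 0.09, adjusted p = 0.148) did not.

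Of the synaptotagmins and Doc2 proteins, most of them calcium sensors, 4 of 9 were called lower and the other 5 were not called. Syt2 (NM_012665), a fast sensor typical of inhibitory and brainstem neurons, was at 118, 122 and 119 in wild-type and 54.1, 81.3 and 45.6 with TTX. In the knockdown it was at 209.9, 154 and 88.8, and at 134, 97.6 and 32.9 with TTX. The untreated wild-type libraries were nearly equal, and those of the knockdown spread widely. Syt2 fell by 0.96 (SE 0.14, adjusted p = 0.0133). Syt5 (NM_019350), a calcium-binding synaptotagmin, was at 2658, 2888 and 2006 in wild-type and 1863, 2556 and 1601 with TTX, and at 4018, 2942 and 2696 in the knockdown and 3402, 2698 and 2199 with TTX. All pairs were lower by small amounts, and the groups overlapped. The Syt5 difference was -0.28 (SE 0.06, adjusted p = 0.035). Syt1, the main sensor of fast release in forebrain, passed at -0.46 (SE 0.10, adjusted p = 0.0388) although wild-type pair 1 was near 0 at 0.05. Doc2a, a high-affinity sensor of spontaneous and asynchronous release, passed at -0.28 (SE 0.07, adjusted p = 0.0457), whereas Doc2b at -0.15 (SE 0.08, adjusted p = 0.266) and Syt12 at -0.34 (SE 0.10, adjusted p = 0.075) did not.

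Not all synaptotagmins followed. Syt11, which does not bind calcium in the usual way and acts in endocytosis, was higher in 6 of 6 pairs by 0.02 to 0.25, a mean of 0.09 (SE 0.05, adjusted p = 0.259). Syt4, another form without normal calcium binding that was described as an activity-regulated gene, differed by 0.18 (SE 0.16, adjusted p = 0.486), its pairs running from -0.20 to 1.06. Syt7, the slow sensor of asynchronous release and vesicle refilling, differed by 0.05 (SE 0.07, adjusted p = 0.656).

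Complexins had 2 of 3 genes called. Cplx1 (NM_022864) was at 3456, 4139 and 3021 in wild-type and 2203, 3118 and 2297 with TTX, and at 6359, 4611 and 4221 in the knockdown and 4973, 4149 and 2897 with TTX. Each TTX library lay below its own untreated partner, and the groups overlapped. Cplx1 fell by 0.42 (SE 0.07, adjusted p = 0.0171). Cplx2 passed at -0.40 (SE 0.09, adjusted p = 0.0351). Cplx3, known from retina ribbon synapses, stayed between 9.42 and 31.4 in all libraries and differed by -0.06 (SE 0.14, adjusted p = 0.797).

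Of the priming and active zone genes all 12 had negative differences and 5 were called. Ppfia2 (NM_001108745), liprin-alpha-2, a scaffold that recruits RIM and CASK to the active zone, was at 2643, 2778 and 2723 in wild-type and 1756, 1793 and 1781 with TTX. Its knockdown levels were 4122, 3133 and 2189 untreated and 2898, 2307 and 1601 with TTX. Wild-type libraries were nearly equal within a treatment, and those of the knockdown differed widely while each pair was lower by a like amount. Ppfia2 fell by 0.54 (SE 0.04, adjusted p = 0.00466). Its paralog Ppfia3 (NM_001270985) was at 2692, 3176 and 2445 in wild-type and 2080.2, 2455 and 1864 with TTX, and at 3947, 3175 and 2443 in the knockdown and 3218, 2891 and 1792 with TTX. Ppfia3 overlapped between treatments in each genotype. It fell by 0.34 (SE 0.05, adjusted p = 0.0165).

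Cadps (NM_013219), the priming factor CAPS1, was at 3965, 3947 and 4466 in wild-type and 2820.4, 2994 and 2956 with TTX, and at 6081, 4447 and 4221 in the knockdown and 4145, 3653 and 2836 with TTX. It was the only one of the 47 with all TTX libraries below all untreated ones in each genotype, as in 1.63% of all genes. Cadps fell by 0.48 (SE 0.06, adjusted p = 0.0096). Erc2 (NM_170787), the scaffold ELKS2 or CAST, was at 1129.6, 1419 and 1129 in wild-type and 930.2, 1063 and 856 with TTX, and at 1974, 1463 and 1331 in the knockdown and 1376, 1319 and 873 with TTX. The wild-type groups did not overlap. Erc2 fell by 0.40 (SE 0.07, adjusted p = 0.0215). Rims2 also passed, at -0.27 (SE 0.06, adjusted p = 0.0404), and Unc13a, Munc13-1, came just outside at -0.26 (SE 0.07, adjusted p = 0.0509). The giant scaffolds Bsn at -0.08 (SE 0.11, adjusted p = 0.654) and Pclo at -0.14 (SE 0.13, adjusted p = 0.505) did not pass. Nor did the RIM genes Rims1 at -0.38 (SE 0.13, adjusted p = 0.104) and Rims3 at -0.15 (SE 0.13, adjusted p = 0.491), or the priming genes Unc13b at -0.11 (SE 0.05, adjusted p = 0.21) and Unc13c at -0.47 (SE 0.16, adjusted p = 0.104).

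All 4 genes of the Rab3 and rabphilin group, which leaves out Rab3d and the regulators of Rab3, were called lower. Rab3a (NM_013018), the main vesicle GTPase of the family, was at 5950.1, 5316 and 4618 in wild-type and 3467, 4031 and 3437 with TTX, and at 8022, 5920.0 and 6321 in the knockdown and 6421, 5250.1 and 4156 with TTX. Wild-type groups did not overlap. Rab3a fell by 0.45 (SE 0.08, adjusted p = 0.0214). Rab3b (NM_031091), required for a form of plasticity at inhibitory terminals in rodents, was at 494, 558 and 386 in wild-type and 254, 336 and 229.6 with TTX. The knockdown held 965, 608 and 887 untreated and 775, 491 and 602 with TTX. Every knockdown library without TTX was above every wild-type library, as were 2 of the 3 with TTX. Rab3b fell by 0.60 (SE 0.06, adjusted p = 0.00621).

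Rph3a (NM_133518), rabphilin, binds Rab3 on the vesicle. It was at 1006, 1061 and 1485 in wild-type and 693, 586 and 559 with TTX, and at 2119, 1489 and 1133 in the knockdown and 1190.2, 809 and 615 with TTX. The wild-type groups did not overlap, and knockdown levels overlapped in 1 library. Rph3a fell by 0.90 (SE 0.11, adjusted p = 0.00918). Rab3c passed at -0.40 (SE 0.09, adjusted p = 0.0382), although wild-type pair 1 hardly differed.

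Endocytosis genes had 2 of 3 called. Sh3gl2 (NM_053935), endophilin A1, which bends membrane and recruits synaptojanin, was at 679.9, 976 and 1085 in wild-type and 594, 771 and 858 with TTX, and at 1627, 917 and 982 in the knockdown and 1329, 746 and 717 with TTX. Groups overlapped in both genotypes, and the spread between pairs was much larger than the difference within them. Sh3gl2 fell by 0.32 (SE 0.05, adjusted p = 0.015). Amphiphysin (Amph) passed at -0.31 (SE 0.07, adjusted p = 0.0376), and dynamin 1 (Dnm1) did not, at -0.16 (SE 0.07, adjusted p = 0.153).

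**Figure D2:**
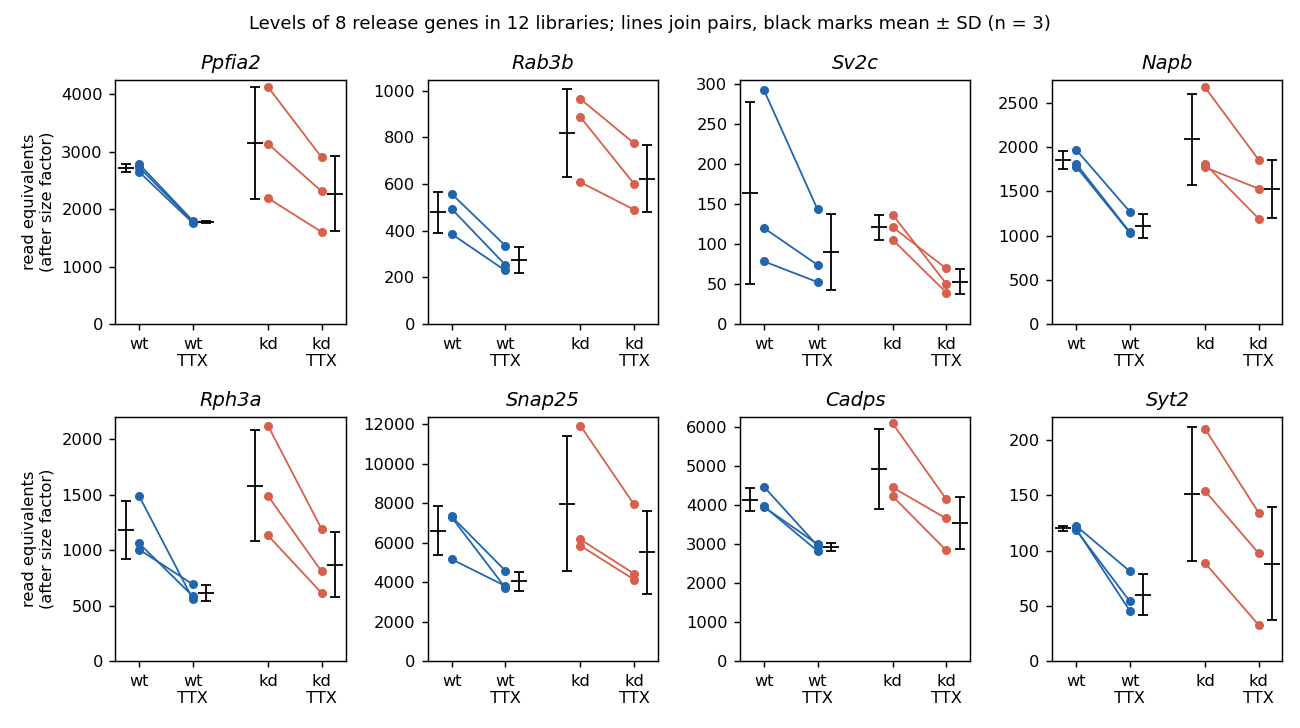
Levels of the 8 release genes with the smallest adjusted p for TTX, in read equivalents after the size factor on axes that start at 0. Points are libraries, lines join the untreated and the TTX library of a pair, wt is wild-type and kd is the Ehmt1 knockdown, and black marks show the mean ± SD of 3 libraries. All 48 lines slope down, and the knockdown libraries spread more widely than the wild-type ones in 7 of the 8 untreated groups.

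The study's design asks next whether the knockdown alters the response to TTX. In wild-type cultures alone, 42 of 47 genes were lower with a median of -0.37, and in the knockdown alone 40 of 47 were lower with a median of -0.31. Leaving out knockdown untreated library 1 moved the latter median to -0.13, and leaving out knockdown TTX library 3 to -0.18. With each pair as a term, limma called 7 genes lower in wild-type (Cadps, Napb, Ppfia2, Rab3b, Rph3a, Snap25 and Svop, background 2.34%) and 2 in the knockdown (Ppfia2 and Sv2c, background 0.439%). With each pair left out in turn, the count in wild-type was 2 without wild-type pair 1 and 0 without any other pair, and in the knockdown it was 5 without wild-type pair 1 and 0 without any other pair. The groups alone called 0 of 47 in wild-type (background 0.0331%) and 0 of 47 in the knockdown (background 0%). At an unadjusted p under 0.05 there were 12 and 6 release genes, against 682 and 447 of all 12073 genes. In 16 genes the 3 wild-type TTX libraries lay below the 3 untreated ones (6.52% of all genes), and in Sv2c and Cadps the same held in the knockdown (4.56%).

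In the test of the difference itself, that of the TTX response between genotypes, no release gene passed. With each pair as a term the count was 0 of 47 (0 of all 12073 genes, 0%), the median difference was 0.03, and 23 of 47 were negative. Unc13c, Rab3b, Svop and Syn3 had an unadjusted p under 0.05 for it, as did 455 of all 12073 genes. With the groups alone no release gene had, against 53 of all genes. Rab3b differed by -0.81 (SE 0.08) with TTX in wild-type and by -0.39 (SE 0.08) in the knockdown, a difference of 0.42 (SE 0.12, limma adjusted p = 0.974). Svop differed by -0.60 (SE 0.10) and -0.22 (SE 0.10), a difference of 0.38 (SE 0.14, adjusted p = 0.974). Unc13c, Munc13-3, was at 23.0, 12.7 and 24.2 in wild-type untreated libraries and lay between 3.51 and 31.7 in all libraries, so its difference of 1.06 (SE 0.32, adjusted p = 0.974) rests on few reads.

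The authors deposited annotation tables for gene lists of their own. These name only genes that fall under an annotation term, and the share of all genes under such terms was not computed. Release genes were 47 of the 12073 genes tested. The counts below therefore do not measure whether release genes were named more often than others. The table whose name refers to genes blocked by the hairpin named 61 genes, 7 of them release genes: Sv2a, Svop, Snap25, Syt2, Ppfia2, Rab3a and Rab3b. The table for genes lowered in common named 99, among them Cadps and Rph3a. The table for genes lowered in wild-type named 196, of which 11 were release genes, those 9 together with Stx1a and Napb. Of the 7 genes in the blocked table, all had a TTX difference nearer 0 in the knockdown than in wild-type by the point estimate, from -0.53 to -0.37 for Rab3a, -0.69 to -0.52 for Snap25, -0.61 to -0.47 for Ppfia2, -1.02 to -0.90 for Syt2 and -0.44 to -0.33 for Sv2a beside Rab3b and Svop above. Since membership was set by the authors from these libraries, that direction is fixed in part by the choice. None of the 7 passed the test of the difference.

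**Figure D3:**
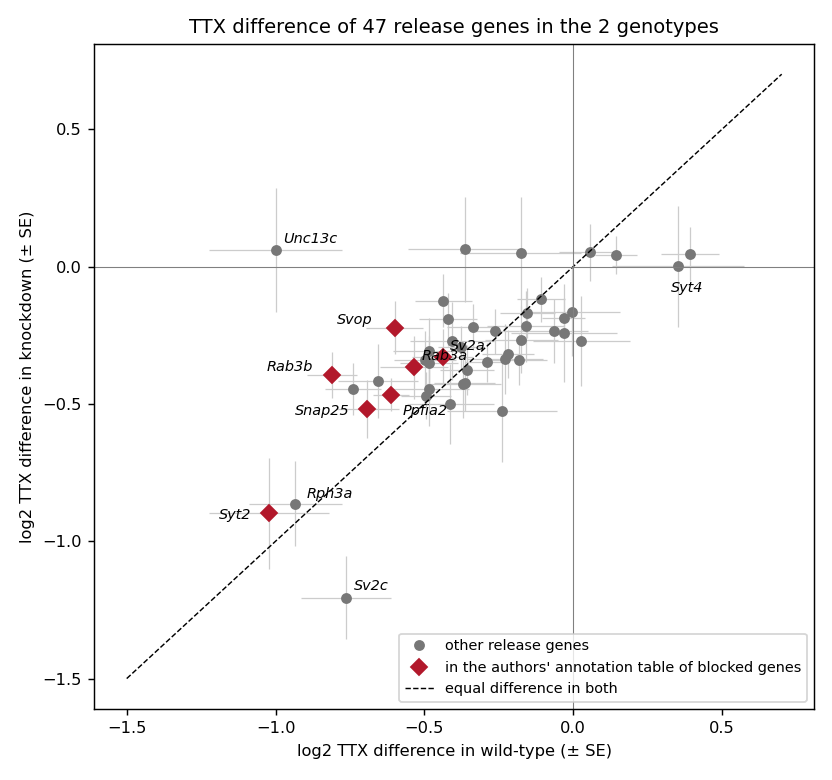
TTX difference of the 47 release genes in wild-type (horizontal axis) and in the Ehmt1 knockdown (vertical axis), both as log2 of read equivalents + 1, with ± SE from limma with each pair as a term. Red diamonds are the 7 genes in the authors' annotation table of blocked genes, grey circles the others, and the dashed line marks equal differences. Most genes lie below 0 on both axes near the line, Rab3b and Svop lie above it, and Unc13c is far from it with few reads.

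The authors' own tests can be set beside these. In the authors' deposited table for TTX in wild-type, 19 of 47 genes were lower and 0 higher at p under 0.05, where 4.28% of all genes were lower and 1.42% higher. In the authors' deposited table for TTX in the knockdown, 4 were lower, against 2.94% of all genes, and 0 were higher, against 1.25%. Rab3b had a z score of -3.145 (p = 0.000837) in the wild-type table and -1.195 (p = 0.116) in the knockdown table among the authors' deposited tables. Nothing in the authors' deposited tables says whether their p values were adjusted. Their counts and the limma counts at an adjusted p may therefore rest on unlike thresholds.

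The knockdown comparison asks how less Ehmt1 changes the cultures. Most release genes were higher in the knockdown, 44 of 47 over both treatments with a median log2 difference, knockdown minus wild-type, of 0.30, where all genes had a median of 0.00. None passed the test: limma with the groups alone called 0 of 47 (background 0.0248%). An unadjusted p under 0.05 was found for 16 of the 47 and for 2033 of all 12073 genes. Averaging the libraries of a pair left 0 called (background 0%) and 7 with an unadjusted p under 0.05, against 735 of all 12073 genes. No release gene had all 6 knockdown libraries above all 6 wild-type libraries, as 0.845% of all genes did, and none had all 6 below (1.04%). The size of the median depended on single pairs: without both libraries of knockdown pair 1 it was 0.12, and without knockdown pair 3 it was 0.47.

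By treatment, 43 of 47 genes were higher in untreated knockdown libraries with a median of 0.29, and 42 of 47 with TTX with a median of 0.34. Leaving out knockdown untreated library 1 gave 0.09, leaving out knockdown TTX library 1 gave 0.14, and leaving out knockdown TTX library 3 gave 0.53. In each of these comparisons limma called 0 of 47 and 0 of all genes (0%). At an unadjusted p under 0.05 there were 4 release genes untreated and 8 with TTX, against 736 and 986 of all 12073 genes. The 2 comparisons use different libraries, but each pair contributes to both.

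Rab3b had the largest difference between genotypes and the smallest adjusted p, at 0.97 (SE 0.17, adjusted p = 0.112 with the groups alone and 0.773 on pair averages). In the authors' deposited table over both treatments Rab3b had a z score of 3.82 (p = 6.78e-05). Test values of the genes that follow are from limma with the groups alone. Next in size were Cplx3 at 0.65 (SE 0.21, adjusted p = 0.19), Unc13c at 0.63 (SE 0.32, adjusted p = 0.342), Syt1 at 0.60 (SE 0.19, adjusted p = 0.182), Sv2b at 0.59 (SE 0.20, adjusted p = 0.206), Cplx1 at 0.57 (SE 0.17, adjusted p = 0.167) and Syn2 at 0.57 (SE 0.14, adjusted p = 0.132). Only Sv2c at -0.44 (SE 0.33, adjusted p = 0.516), Syn3 at -0.08 (SE 0.27, adjusted p = 0.905) and Syt4 at -0.03 (SE 0.20, adjusted p = 0.954) were below 0. At p under 0.05 in the authors' deposited tables, release genes numbering 6 were higher in the untreated knockdown (background 2.77%), 11 with TTX (4.22%) and 17 over both treatments (9.77%), and 0 were lower in any of the 3 (background 2.28%, 4.66% and 11.2%).

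By role, the medians between genotypes were 0.21 for vesicle membrane proteins, 0.33 for synapsins, 0.34 for SNAREs, 0.30 for synaptotagmins and Doc2, 0.57 for complexins, 0.18 for priming and active zone genes, 0.43 for the Rab3 and rabphilin group and 0.31 for endocytosis. Rims1, Rims2, Bsn and Unc13b, all of the active zone group, differed by 0.03 to 0.08.

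Markers of neurons as a whole had differences of the same sign as the release genes. Of 12 neuron markers, such as Map2 and Tubb3, all were lower with TTX over both genotypes with a median of -0.31. With each pair as a term 6 of them were called, against 7.54% of all genes called lower. In the knockdown 10 of the 12 markers were higher with a median of 0.41 and 0 called. Their summed level ran from 93165 to 119895 in wild-type, 77836 to 93729.9 in wild-type with TTX, 103170 to 146179 in the knockdown and 81143 to 120574 in the knockdown with TTX. In bulk RNA fewer neurons and less of these transcripts per neuron cannot be told apart. GABAergic markers had a TTX median of -0.49 (9 of 12 lower, 6 called) and glutamatergic markers one of -0.25 (7 of 8 lower, 3 called), against the same 7.54% of all genes. Summed GABAergic markers were at 16996 to 22560 in wild-type, 15493 to 19900.6 with TTX, 22306 to 25223 in the knockdown and 20924 to 22811 in the knockdown with TTX. The part of cell composition in the result was not tested.

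Markers of astrocytes and of cycling cells mostly had TTX differences of the opposite sign. Of 10 astrocyte markers 9 were higher with a median of 0.19 and 0 called, their sum running from 118247 to 166212 in wild-type, 146520 to 182702 with TTX, 117818 to 187132 in the knockdown and 127404 to 216994 in the knockdown with TTX. All 10 markers of cycling cells were higher, with a median of 0.41 and 9 called, where 660 of all 12073 genes were called higher. Their sum ran from 7359 to 19662 in wild-type, 10012 to 26331.5 with TTX, 8902 to 11790.1 in the knockdown and 12898.5 to 16693.5 in the knockdown with TTX. With TTX, oligodendrocyte lineage markers had a median of 0.09 over both genotypes, 8 of 10 higher and 1 called. Within the knockdown their TTX median was -0.04, 5 of 10 higher. Between genotypes these markers differed by a median of -1.18 in the knockdown, 8 of 10 lower and 0 called. Their median from each gene's mean was -1.49 and -1.48 in the libraries of knockdown pair 1, 0.06 to 0.35 in the other knockdown libraries and -0.15 to 1.30 in wild-type libraries, so that pair 1 stood apart. Microglia markers summed to at most 152 in any library. The 9 vascular and fibroblast markers summed to 802 to 1043 in wild-type and 1005 to 1271 with TTX. In the knockdown their sum was 542 to 821, and 482 to 750 with TTX. Among these 9, the endothelial marker Cldn5 was under 3 in all libraries. None of the markers was at 0 in all libraries.

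**Figure D4:**
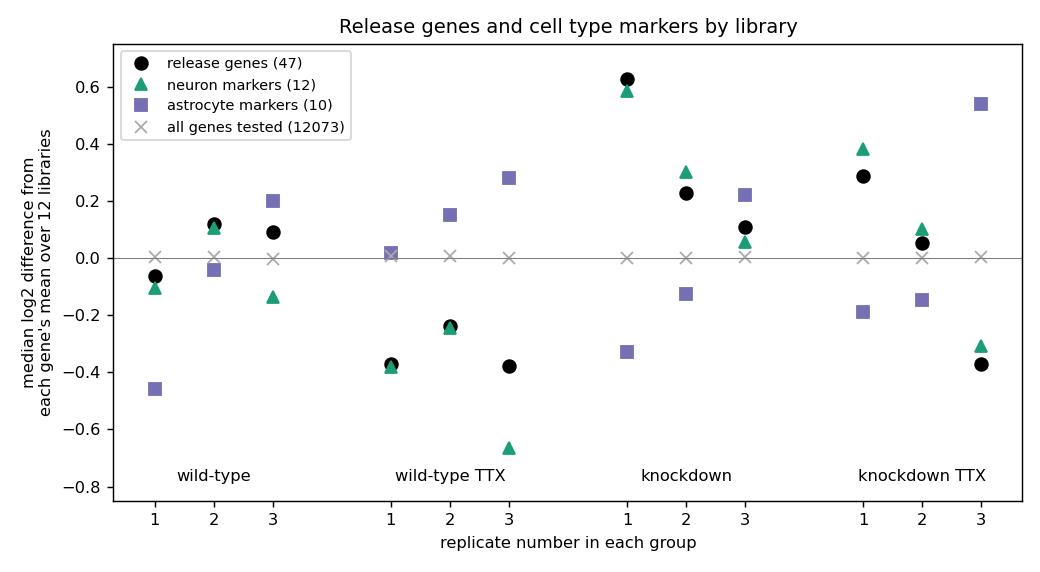
Median log2 difference of the 47 release genes (black circles), 12 neuron markers (green triangles), 10 astrocyte markers (purple squares) and all 12073 genes tested (grey crosses) from each gene's mean over the 12 libraries, by library. Release genes lie near the neuron markers in most libraries and run from 0.63 in knockdown untreated library 1 to -0.38 in wild-type TTX library 3, while the median of all genes stays near 0.

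The median of the release genes was -0.06, 0.12 and 0.09 in wild-type untreated libraries 1, 2 and 3, and -0.37, -0.24 and -0.38 with TTX. In the knockdown it was 0.63, 0.23 and 0.11 untreated and 0.29, 0.05 and -0.37 with TTX. The wild-type treatments did not overlap, and knockdown library 1 was the highest of its treatment on both sides. Across the 12 libraries, which fall into pairs, the median correlation between 2 release genes was 0.61, with quartiles of 0.33 and 0.78. Syn3 (r = 0.01 with the median of the others), Syt11 (r = 0.08) and Syt4 (r = 0.20) followed the rest least, which is a description over 12 points and carries no test.

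Other genes of the same pathways were taken from 3 further lists. Of 49 further release genes 46 were tested, of which 10 fell and 2 rose with TTX over both genotypes (26.1% called, against 13% of all genes), with a median of -0.11 and a range from -1.13 to 0.52. Called among them were Apba1 (Mint1, a Munc18-binding adaptor) at -0.56 (SE 0.05, adjusted p = 0.00595), the synaptophysin relative Synpr at -0.61 (SE 0.09, adjusted p = 0.0123), the syntaxin Stx3 at -0.45 (SE 0.07, adjusted p = 0.0136) and the scaffold Lin7b at -0.58 (SE 0.09, adjusted p = 0.0142), each lower in 6 of 6 pairs. In the knockdown comparison 0 of 46 passed, the smallest adjusted p being that of Stxbp6 (amisyn) at 0.59 (SE 0.17, adjusted p = 0.164), followed by Rab3d at 0.49 (SE 0.15, adjusted p = 0.175).

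Among 29 further endocytosis genes tested, 3 fell and 1 rose (13.8% called), a share near the 13% of all genes, with a median of -0.10. Dynamin 3 (Dnm3) rose by 0.35 (SE 0.05, adjusted p = 0.0138), higher in 6 of 6 pairs, beside the dynamin 1 value of -0.16. Auxilin (Dnajc6) at -0.24 (SE 0.05, adjusted p = 0.0405), the clathrin adaptor AP180 (Snap91) at -0.29 (SE 0.07, adjusted p = 0.0422) and syndapin (Pacsin1) at -0.32 (SE 0.08, adjusted p = 0.0475) fell. Knockdown values of Ap2m1, 0.33 (SE 0.10, adjusted p = 0.17), and Dnajc6, 0.44 (SE 0.16, adjusted p = 0.213), did not pass.

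Vesicles are filled by transmitter transporters driven by a proton pump, and of 21 such genes 19 were lower, with a median of -0.21. Of the 21, 3 were called lower (14.3%, against 7.54% of all genes) and 0 higher. With the pair as a random effect 9 fell (42.9%, against 9.43%). The vesicular GABA transporter Slc32a1, also counted with the GABAergic markers, fell by 0.76 (SE 0.10, adjusted p = 0.00984), and the glutamate transporter Slc17a6 (VGLUT2) by 0.69 (SE 0.09, adjusted p = 0.00973). The pump subunit Atp6v1b2 fell by 0.26 (SE 0.06, adjusted p = 0.0372), and Atp6v1e1 at -0.25 (SE 0.06, adjusted p = 0.0527) did not pass. Between genotypes Atp6v1g2 at 0.49 (SE 0.18, adjusted p = 0.217) and Slc17a7 (VGLUT1) at 0.47 (SE 0.19, adjusted p = 0.263) did not pass.

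Some release genes had more than 1 transcript entry. Of the 3 entries of Snap25, 2 had identical values, and all had like differences, from -0.71 to -0.69 in wild-type and from -0.52 to -0.51 in the knockdown. Rims2 entries differed in level but not in direction, at -0.22 in wild-type and -0.32 in the knockdown for the entry used, and -0.33 and -0.44 for the other. For Syn2 the entry used differed by -0.11 in wild-type and -0.12 in the knockdown and the other by -0.24 and -0.20. Entries of a gene can share coverage, so isoforms cannot be told apart here.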

How the data were processed

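Ribosomal RNA was removed from total RNA, and libraries that keep the strand were read from a single end, per the labels' protocols. Per the submitters' processing notes, the authors used the rn6 genome with GSNAP, DESeq and DESeq2, whose versions are not listed. The deposited signal values were base coverage per RefSeq transcript divided by a size factor per library, read from the values: all (100%) were whole multiples of 1 step per library, to within 0.01 of a step. They were divided by a read length of 42 nt, which the labels do not state. It was inferred because 43.7% to 54.5% of the low values of a library lay at multiples of 42 steps. The deposited score is a z value signed by direction, and the deposited p-value stands under a header that names DESeq, per the file headers. The other deposited values are term annotations, used for gene names.

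The log2 of read equivalents plus 1 was modelled by group, with no further term, in limma (version 3.58.1, R version 4.3.3), and two-sided p were adjusted by Benjamini-Hochberg over the 12073 genes tested, with a threshold of 0.05. The filter dropped 5266 symbols. Count models were not used because coverage is not a count. The fits were run on simulated data that held a pair effect and changes larger than those of the release genes over both genotypes. That run does not cover smaller changes or unpaired libraries.

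Pairing was checked by correlating each library's deviations from its group. In wild-type, same-numbered TTX and untreated libraries had r of 0.44, 0.61 and 0.85, those of the knockdown had 0.78, 0.69 and 0.77, and same-numbered libraries of different genotypes had -0.28 to 0.02. Numbers were therefore taken to pair libraries within a genotype, and the TTX errors and adjusted p printed come from the replicate block, each genotype and number as a term, with the groups alone beside them. The labels do not state this pairing. For the knockdown the errors and adjusted p printed come from the groups alone, unless pair averages are named. That fit counts both libraries of a pair as separate, although they deviated together. On pair averages the smallest limma adjusted p of any release gene was 0.773.

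The genes, their roles and the other gene lists were chosen with earlier results of these data known. Genes given in every library were those with an adjusted p under 0.05 in any fit, at most 20 by smallest adjusted p, plus the highest-mean synapsin. Up to 4 genes of each further pathway list were named by the TTX p over both genotypes and up to 2 by the knockdown p. Where nothing shows that libraries came from separate animals, p-values measure only the spread between these libraries.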

Additional observations from a re-analysis of the deposited data

How the results depend on the processing

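No result reversed its sign among the alternatives run for called values. Without a replicate block, 0 release genes were called for TTX in wild-type, in the knockdown and over both genotypes; with the block as a term the counts were 7, 2 and 27, and with the block as a random effect (correlation 0.714) they were 17, 5 and 27. From the fit with the block as a term, values on the deposited scale gave 1, 0 and 13, no filter on low values gave 2, 1 and 15, a filter of 50 read equivalents gave 17 and 6 within single genotypes, limma's trend and robust options gave 24 and 15, a pseudocount of 5 gave 13 in wild-type, and quantile normalization gave 0 in the knockdown. Over both genotypes the count lay between 26 and 31 under the other alternatives, namely pseudocounts of 0.5 and 5, a filter of 50, TMM scaling, quantile normalization, entry means and trend and robust options. Leaving out a library or a pair gave 0 to 2, 0 to 5 and 0 to 28, and with the block as a term alone 3 to 28 over both genotypes. The cause was not tested.

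Knockdown comparisons and the test of the difference between genotypes called 0 release genes under every alternative run, the replicate block on the number included. Adjusted p for Rab3b between genotypes lay between 0.0637 and 0.773. Leave-one-out medians were -0.44 to -0.27 for TTX in wild-type, -0.46 to -0.13 in the knockdown, -0.40 to -0.24 over both, 0.09 to 0.41 for the untreated knockdown, 0.14 to 0.53 for the knockdown with TTX, 0.12 to 0.47 over both treatments and -0.14 to 0.19 for the difference of the TTX responses. No scaling moved the median of all genes by more than 0.1. The alternatives on the block as a term, and leaving out both libraries of a pair, were chosen after seeing the data.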
